A study of Mus musculus with 2 samples.

Results

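The cultures compared here were mouse bone marrow cultures on day 5 of growth, 1 given heme bound to albumin and 1 given albumin alone. They held 5266 cells of the 31339 barcodes in both libraries, with 2601 cells in the control culture and 2665 in the heme culture. A barcode counted as a member when it carried only the hashtag of day 5, when 500 or more genes were detected in it, and when under 15% of its molecules came from mitochondrial genes. Under the same limits, all culture days together held 25221 cells. No upper limit was set on the genes detected per cell.

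Both groups started from lineage-negative progenitors flushed from the long bones of C57BL/6 mice aged 8 to 10 weeks, and both grew with GM-CSF at 20 ng/ml, with medium at 40 ng/ml added on day 2. On day 3 the heme group received heme-albumin at 300 µM and the control group received albumin alone, which the methods of the study name as human serum albumin. Each group was 1 droplet library of 3′ transcript ends counted through unique molecular identifiers (UMIs). Each library pooled 5 cultures marked with hashtag antibodies for days 0, 3, 4, 5 and 7. The sources differ on how long the day 5 cells had met heme, since the labels set heme on day 3 and harvest on day 5, which is 48 h, whereas the design text lists 0, 24, 72 and 96 h. No source used here says whether the cultures of the libraries were split from the same cells or animals. A difference between the groups is therefore a difference between 1 culture and another, with no replicate, and no test across cultures and no p-value is given.

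Free heme is a reactive iron compound. Cells take it up, open its ring with heme oxygenase, store the freed iron in ferritin and pass iron out through ferroportin. Heme also binds the repressor BACH1, which otherwise holds down the genes of heme breakdown and of the oxidant response, where the activator NRF2 acts on the same sites. GM-CSF cultures of bone marrow are a mixture in which granulocytes, monocytes, macrophages and dendritic cells arise side by side, and dendritic cells are marked by MHC class II and chemokine genes.

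The day 5 culture of the control library carried 34608096 UMIs with a median of 9496 UMIs and 2363 genes per cell, and that of the heme library 51633887 UMIs with medians of 12437 and 3325. Cells with more than 5000 detected genes made up 8.38% of the control and 28.3% of the heme culture, and they had done so before heme too, with 8.66% and 35.1% on day 3. Ribosomal protein genes took 18.3% and 14.2% of the UMIs on day 5, and mitochondrial genes took 4.52% and 4.89%. The hashtags of day 3 mark cells that had met no heme, but these cells were pooled with exposed cells before the droplets were made. In the heme library, Hmox1 stood at 124 CPM on day 0 and 150.1 CPM on day 3, against 1.84 and 36 CPM in the control library. CPM stands for UMIs of a gene per 1000000 UMIs of the culture. Free RNA from exposed cells and a difference between the cultures cannot be told apart in these values. Of the day 5 cells, 1 barcode occurred in both libraries. Of 4 genes of the Y chromosome in the files, none passed 2-fold between the cultures.

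Of 9196 genes with a mean of 5 CPM or more over both cultures, 500 were 2-fold or more higher in the heme culture, which is 5.44% of those tested, and 194 were 2-fold or more lower, which is 2.11%. The median log2 ratio of all tested genes was 0.21 in favour of heme. This shift depends on the scaling, as TMM and DESeq2 factors moved all day 5 log2 ratios down by 0.22 and 0.24. With TMM factors, 296 genes were higher and 307 lower, with DESeq2 factors 286 and 325, and with ratios centred on the median of all genes 306 and 297. Values below are scaled to total UMIs unless said otherwise, and a list with a median near 0.21 lay where the bulk of genes lay. Intervals in brackets are exact 95% intervals of the ratio of 2 counts, and they and all other intervals cover counting error only. In summed UMIs, fewer cells of a type and less RNA per cell cannot be told apart. The sums were also made without cells of more than 5000 genes, here called the gene limit, and with the same weight for each cell, here called equal weight. Ratios under these are given for genes whose call they ended or whose ratio they moved by over 1.5 times.

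Day 3 served as the background. On that day 162 of the same genes were 2-fold higher in the heme library and 7 were lower, with a median log2 ratio of 0.35. The day 0 cultures, also without heme, differed more. There 1256 of the same genes (13.7%) were 2-fold higher in the heme library and 27 (0.294%) were lower, with a median of 0.45. Of the 500 genes higher on day 5, 61 were also 2-fold higher on day 3, and of the 194 lower genes 4 were also lower then. Dividing each day 5 ratio by the day 3 ratio left 188 genes higher on day 5 and net of day 3, or 2.04% of those tested, and 150 lower, or 1.63%. Day 3 ratios can hold free RNA from exposed cells of the pool, so the division may take that out as well. The part of free RNA in them was not tested. In the later culture of day 7, 390 of the 500 higher genes and 136 of the 194 lower genes were 2-fold different in the same direction, beside 10.8% of all tested genes that were 2-fold higher and 4.25% that were lower on that day, while 2 and 13 were 2-fold different in the opposite direction.

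**Figure D1:**
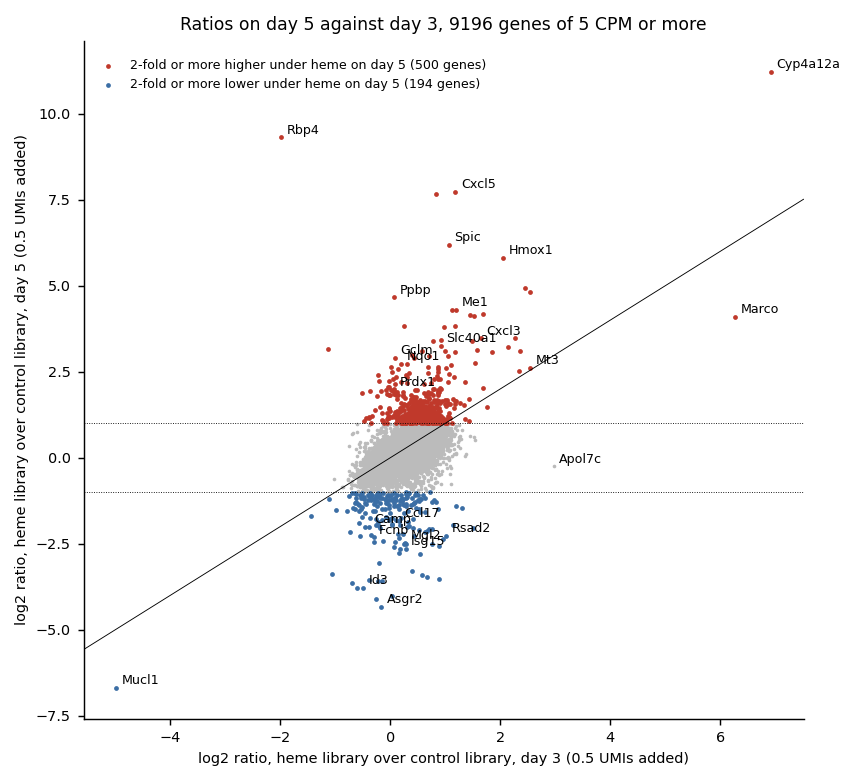
Each point is 1 of 9196 genes, with the log2 ratio of the heme to the control library on day 3 (before heme) on the horizontal axis and on day 5 on the vertical axis, 0.5 UMIs added to each count, red for the 500 genes 2-fold or more higher and blue for the 194 genes 2-fold or more lower on day 5, dotted lines at 2-fold, and a diagonal for equal ratios on both days. Points of both colours lay away from the diagonal, and 61 of the 500 higher genes were also 2-fold higher on day 3.

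Genes of heme breakdown and transport were among the most different. Of 15 genes on this list, 9 passed the level of 5 CPM, 6 of these were 2-fold higher in the heme culture, beside 5.44% of all tested genes, and none was lower, with a median log2 ratio of 1.36, and 5 stayed 2-fold higher net of day 3. Hmox1 (chr8:75093621-75100589, GRCm38, plus strand), the inducible heme oxygenase, stood at 62.6 CPM in the control and 3497 CPM in the heme culture, a ratio of 55.9 (53.6 to 58.3). On day 3, before heme, the gene stood at 36 and 150.1 CPM. Spic, which encodes a transcription factor of iron-recycling macrophages, was counted with 13 UMIs in the control culture and 1474 in the heme culture, or 0.376 and 28.5 CPM, a ratio of 76 (44.3 to 143). On day 3 it was at 0.926 and 1.96 CPM. Slc48a1, a transporter that moves heme out of the phagolysosome, was at 67 and 370.2 CPM, 5.53-fold higher (5.29 to 5.77), after 54 and 68.8 CPM on day 3. The ratio of Hmox1 was 36.6 under the gene limit and 33.2 at equal weight.

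The next steps and the regulators showed smaller ratios. Blvrb, a biliverdin reductase, was 2.57-fold higher at 523 CPM, or 1.63-fold under the gene limit. Blvra, the other biliverdin reductase of the list, was at 0.834 times the control level, and Hmox2, the constitutive heme oxygenase, at 0.756 times. Lrp1, a receptor for heme bound to hemopexin, was 3.35-fold higher. Bach1, the repressor that heme binds, stood at 40.4 CPM in the control and 86.6 CPM in the heme culture, a ratio of 2.14 that became 1.53 net of day 3 and 1.83 at equal weight. Flvcr1, a heme exporter, reached 1.87-fold and was not called. Cd163, the receptor for hemoglobin bound to haptoglobin, and Hpx, the gene of hemopexin, were near 0 in both cultures, at no more than 0.0867 and 0.116 CPM.

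Iron genes were split by role. Of 14 tested members of the iron list, 4 were 2-fold higher and 2 were 2-fold lower, beside 5.44% and 2.11% of all tested genes. The list had a median log2 ratio of 0.76. The ferritin genes had by far the highest counts of the list. Fth1, ferritin heavy chain, was at 6623 CPM in the control and 6629 CPM in the heme library on day 3, and at 14668 and 51894 CPM on day 5, 3.54-fold higher. It was thereby the most abundant gene of the heme culture. Ftl1, ferritin light chain, was at 8425 and 17775 CPM, 2.11-fold higher, but its ratio fell below 2-fold with TMM or DESeq2 factors, under the gene limit, at 1.77-fold, and at equal weight, at 1.53-fold. Both ferritin genes have many processed copies in the genome, and reads shared with such copies were not separated here.

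The iron exporter and the transferrin route of uptake differed in direction. Slc40a1 (chr1:45908068-45926523, minus strand), ferroportin, was at 21.2 CPM in the control and 202 CPM in the heme culture, 9.55-fold higher (8.86 to 10.3), with 6.22-fold under the gene limit and 3.95-fold at equal weight. Slc11a1, an iron transporter of the phagosome membrane, was 3.12-fold higher, although only 1.37-fold net of day 3 and 1.76-fold at equal weight. Tfrc, the transferrin receptor, was at 90.0 and 37.3 CPM, 0.414 times the control level (0.391 to 0.438), whereas on day 3 it had been at 119.6 and 202 CPM. Trf, the gene of transferrin itself, was at 105 and 45.7 CPM, 0.433 times. Both lower calls ended under the gene limit, with 0.514 times for Tfrc and 0.824 times for Trf, and at equal weight, with 0.535 and 0.815 times. Ireb2 and Aco1, whose proteins sense iron, were at 1.46 and 1.78 times, and Ncoa4, which delivers ferritin to the lysosome, at 1.86 times. Taken over both lists, 10 of 23 tested heme and iron genes were 2-fold higher and 8 of these net of day 3. The shares of all tested genes were 5.44% and 2.04%.

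Genes that build heme lay near the bulk of genes. Of 11 tested, 2 were 2-fold higher, beside 5.44% of all tested genes, and none net of day 3. The list median of 0.03 turned to -0.21 with DESeq2 factors. Fech, which inserts iron in the last step, was 2.21-fold higher and the mitochondrial iron carrier Slc25a37 2.06-fold, and neither call held at equal weight, with 1.92-fold and 1.95-fold, while under the gene limit Fech was at 1.79-fold. Alas1, the first and rate-limiting enzyme, was at 133 and 144 CPM, a ratio of 1.08.

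The oxidant response was examined through 3 lists, glutathione, thioredoxin with peroxiredoxin and catalase, and NADPH supply. Of 44 tested members, 15 were 2-fold higher, beside 5.44% of all tested genes, 10 of them net of day 3 too, and 1 was lower. The promoters of the members with the largest ratios that hold a binding motif of NRF2 and BACH1 are shown first, because both factors can act through such a motif. Whether they did so at these matches was not tested. The sequences are the RefSeq windows of GRCm38.p6 from 250 bases before to 50 after the start of the gene, at chr9:86695865-86696164 on the minus strand for Me1 and chr3:122245307-122245606 on the plus strand for Gclm. Capitals mark the motif TGACNNNGC on either strand. In Me1 it began 6 bases before the start and ran across it, and Me1 has 2 windows in the table. In Gclm it began 134 bases before the start on the opposite strand.
Me1: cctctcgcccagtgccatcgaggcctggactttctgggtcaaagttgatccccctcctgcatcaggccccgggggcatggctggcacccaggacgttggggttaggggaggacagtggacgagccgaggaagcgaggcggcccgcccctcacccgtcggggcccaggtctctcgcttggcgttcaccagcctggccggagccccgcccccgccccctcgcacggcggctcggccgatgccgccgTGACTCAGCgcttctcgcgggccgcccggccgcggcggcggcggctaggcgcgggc
Gclm: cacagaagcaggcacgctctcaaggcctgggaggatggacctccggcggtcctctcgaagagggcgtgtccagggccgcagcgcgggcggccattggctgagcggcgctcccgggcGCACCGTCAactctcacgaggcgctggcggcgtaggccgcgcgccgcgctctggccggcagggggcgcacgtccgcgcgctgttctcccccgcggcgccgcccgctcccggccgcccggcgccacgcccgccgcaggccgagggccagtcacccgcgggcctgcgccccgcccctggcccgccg

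The motif occurred in 12.4% of 32851 promoter windows and in 14% of 27025 genes. Among the oxidant response genes it occurred in 7 of the 13 called members that had a window, namely Me1, Gclm, Srxn1, Prdx1, Txnrd1, Sod1 and Pgd, and in 10 of the 39 tested members with a window. Nqo1, Slc7a11 and Cat had no match in these windows. A match is a run of letters and no measured binding.

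Me1, malic enzyme, which supplies NADPH, had the largest ratio of the tested oxidant response genes. It was at 1.82 CPM in the control and 36.4 CPM in the heme culture, 20.0-fold higher (15.5 to 26.1), after 1.29 and 2.98 CPM on day 3. Gclm (chr3:122245557-122270732, plus strand), the modifier subunit of the enzyme that begins glutathione synthesis, stood at 217 and 229 CPM on day 3 and at 138 and 1033 CPM on day 5, 7.51-fold higher (7.29 to 7.74). The day 5 level was thus below that of day 3 in the control library and above it in the heme library. Nqo1, a quinone reductase, was at 15 and 100.1 CPM, 6.68-fold higher (6.10 to 7.32), or 3.86-fold at equal weight.

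Of 17 tested glutathione genes, 7 were 2-fold higher and 1 was lower, beside 5.44% and 2.11% of all tested genes. The list had a median log2 ratio of 0.76. Besides Gclm, the synthesis genes Gclc and Gss were 2.84-fold and 2.58-fold higher, and Slc7a11, which imports cystine for it, was 3.66-fold higher at 512 CPM. The transferases Gstm1 and Mgst2 were 2.82-fold and 2.22-fold higher. At equal weight 4 of the list were 2-fold higher, with Gss at 1.78-fold, Gstm1 at 1.33-fold and Mgst2 just under 2-fold, and Gss was at 1.31-fold under the gene limit. Gsr, which regenerates reduced glutathione, was at 1.69 times and was not called. The exception was Gpx1, a glutathione peroxidase that contains selenium, at 1338 CPM in the control and 488 CPM in the heme culture, 0.365 times (0.359 to 0.371), from 1407 and 1383 CPM on day 3. The related Gpx3 and Gpx4 were at 0.554 and 0.888 times.

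Of 17 tested genes of the thioredoxin list, 6 were 2-fold higher, beside 5.44% of all tested genes, and none was lower. The list median of 0.08 turned to -0.17 with DESeq2 factors, so that the list was divided within itself. Prdx1, a peroxiredoxin, was at 1389 and 5497 CPM, 3.96-fold higher, from 618 and 649 CPM on day 3. Its paralogs differed, with 1.97 times for Prdx6 and between 0.667 and 0.850 times for Prdx2, Prdx3, Prdx4 and Prdx5. Srxn1, which repairs oxidized peroxiredoxins, was 4.40-fold higher, catalase (Cat) 3.61-fold, Txnrd1 2.62-fold and Sod1 2.21-fold. Txn1, the substrate of Txnrd1, was at 0.869 times. In the NADPH list, 2 of 10 were 2-fold higher, beside 5.44% of all tested genes. They were Me1 and the pentose phosphate gene Pgd at 2.19-fold. Prdx1 was 2.19-fold and Txnrd1 1.94-fold higher under the gene limit, and at equal weight Pgd was 1.88-fold higher.

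The factors themselves and other stress programmes were counted in the same way. Of 9 tested genes of NRF2 and its partners, Bach1 and Sqstm1 were 2-fold higher, beside 5.44% of all tested genes. Sqstm1, an autophagy receptor, was at 2.73-fold, while Nfe2l2, which encodes NRF2, was at 0.823 times the control level. Of 14 tested genes of the integrated stress response, 3 were 2-fold higher, beside 5.44% of all tested genes. They were Slc7a11, Atf3 at 3.45-fold and Atf5 at 2.03-fold, whereas Ddit3 and Asns were at 1.00 and 0.918 times. Of 11 tested heat shock chaperones, Bag3 and Hsph1 were 2-fold higher, beside 5.44% of all tested genes, but neither was so net of day 3. Both calls also ended under the gene limit, at 1.97-fold and 1.62-fold, and with DESeq2 factors, where the list median of 0.04 turned to -0.20. Among the metallothioneins, which bind metal ions, Mt3 was at 57 CPM in the control and 348 CPM in the heme culture, 6.12-fold higher. Its day 3 values were 1.96 and 11.5 CPM, so that net of day 3 the ratio was 1.05. Mt2 was 3.16-fold higher and 2.03-fold net of day 3. Of the genes named here, Sqstm1 and Atf5 were 1.73-fold and 1.54-fold higher at equal weight, and Atf3, Atf5 and Mt3 2.03-fold, 1.99-fold and 3.56-fold under the gene limit, while Mt2 was at 2.02-fold at equal weight.

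**Figure D2:**
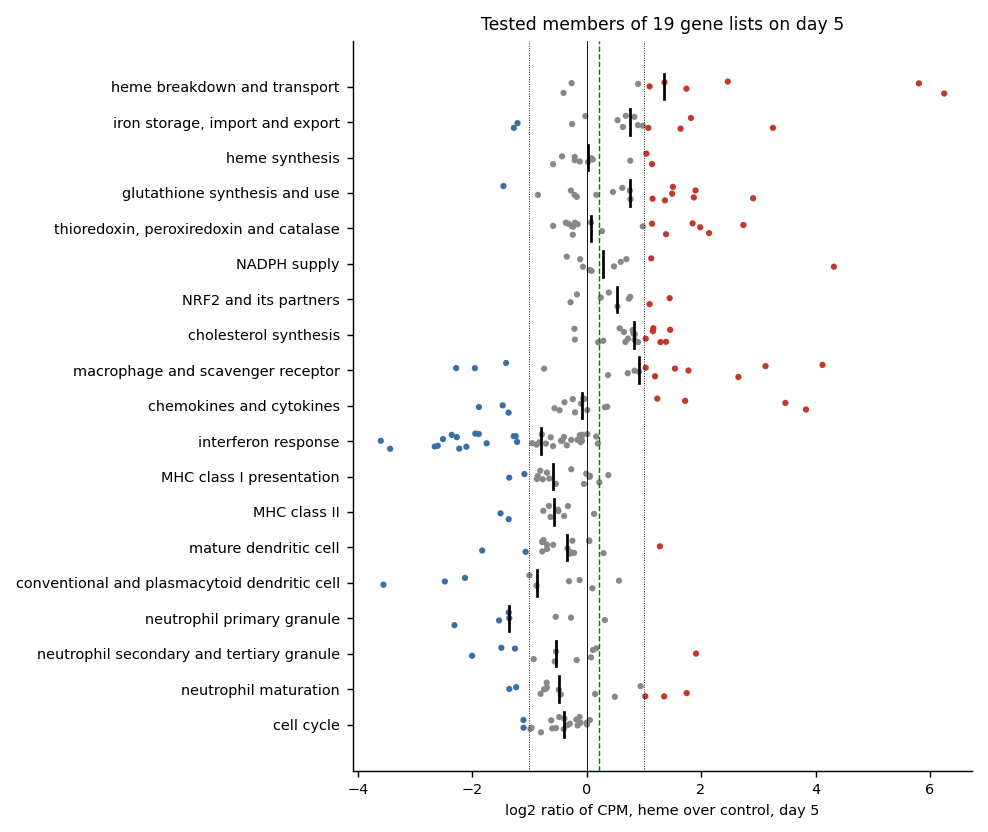
Log2 ratios of the heme to the control culture on day 5 for the tested members of the gene lists, 1 point per gene, with black bars at the list medians, dotted lines at 2-fold and a green dashed line at the median of all 9196 tested genes at 0.21. Heme breakdown (median 1.36) and glutathione genes (0.76) lay to the right, interferon genes (-0.80) and primary granule genes (-1.35) to the left.

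Most antigen presentation genes of MHC class II were lower in the heme culture by less than 2-fold. Of 10 tested, 2 were 2-fold lower and none higher, beside 2.11% of all tested genes that were lower, with a median log2 ratio of -0.57, while on day 3 the median was -0.03. H2-Ab1 was at 456 and 450.2 CPM on day 3 and at 1440.2 and 931 CPM on day 5, above the day 3 level in both libraries and 0.646 times the control level with heme. Cd74, the invariant chain, was at 7139 and 5045 CPM, 0.707 times, and H2-Aa and H2-Eb1 were at 0.711 and 0.633 times. The members past 2-fold were H2-DMb2 at 0.353 times (0.334 to 0.373), part of the complex that loads peptides, and H2-Ob at 0.389 times, part of its inhibitor. By contrast, H2-DMb1, a close copy of H2-DMb2, was at 189.5 and 207 CPM, or 0.560 times under the gene limit, and reads shared between these copies were not separated. The size of this difference depended on the cells with more than 5000 genes. Without them, 7 of the 10 genes were 2-fold lower and the median was -1.18.

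In the MHC class I list, 2 of 16 genes were 2-fold lower, beside 2.11% of all tested genes, and none was higher. The lower members were Psmb8 and Psmb9, subunits of the immunoproteasome, at 0.471 and 0.392 times, and the third subunit Psmb10 was at 0.553 times. The class I chains H2-K1 and H2-D1 and their partner B2m lay at 1.04, 1.04 and 0.968 times.

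Dendritic cell genes did not form a uniform group. Of 19 tested genes of mature dendritic cells, 2 were 2-fold lower and 1 was higher, beside 2.11% and 5.44% of all tested genes. The list had a median log2 ratio of -0.34. Ccl17, a chemokine that attracts T cells, was the most abundant, at 4897 CPM in the control and 1383 CPM in the heme culture, 0.282 times (0.280 to 0.285), from 526 and 584 CPM on day 3. Il4i1, an amino acid oxidase, was at 0.478 times. The migration receptor Ccr7 was at 67.7 and 58.2 CPM and the actin bundler Fscn1 at 57.1 and 45.2 CPM, ratios of 0.859 and 0.792. Cd274, which encodes the inhibitory ligand PD-L1, was the member on the other side, at 55.3 and 134 CPM, 2.43-fold higher, and 1.69-fold net of day 3. Its ratio was 1.81 under the gene limit and 1.65 at equal weight, that of Ccl17 was 0.142 under the gene limit, and that of Il4i1 0.502 with cells of under 30% ribosomal UMIs.

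The list of conventional and plasmacytoid dendritic cells held 3 lower genes of 9 tested, beside 2.11% of all tested genes, and none higher. Its median log2 ratio was -0.87. Cd209a, a C-type lectin, was at 18.1 and 1.55 CPM, 0.0854 times (0.0668 to 0.108). Mgl2, another lectin, was at 82.8 and 100.0 CPM on day 3 and at 629.9 and 113 CPM on day 5, 0.180 times. Dpp4 was at 0.229 times. Under the gene limit these ratios were 0.0447 for Cd209a, 0.0964 for Mgl2 and 0.370 for Dpp4. Itgax, which encodes CD11c, was at 1.07 times, and the factors Irf4 and Batf3 at 0.808 and 1.48 times. The defining genes Xcr1, Clec9a and Siglech stood at or below 2.27 CPM in both cultures.

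Macrophage genes were divided. Of 15 tested, 7 were 2-fold higher and 3 were 2-fold lower, beside 5.44% and 2.11% of all tested genes. Of the higher ones, Gpnmb and Cd36 stayed so net of day 3. The median log2 ratio was 0.91. Gpnmb, a glycoprotein of lysosome-rich macrophages, was at 45.5 and 73.5 CPM on day 3 and at 185 and 1162 CPM on day 5, 6.28-fold higher (6.12 to 6.45). The scavenger receptor Cd36 was at 156 and 536 CPM, 3.43-fold higher, Msr1 2.91-fold and the mannose receptor Mrc1 2.29-fold. Marco was at 1.36 and 23.6 CPM with a ratio of 17.4 (13 to 23.8). In the day 3 cells, pooled with exposed cells, it was at 0.0842 and 7.56 CPM, with 3 UMIs counted in the control culture. The Marco ratio net of day 3 was thus 0.223. Igf1 was 8.73-fold higher, from 41 UMIs in the control culture. Under the gene limit Gpnmb was 2.37-fold and Igf1 3.89-fold higher, and the calls of Cd36, Msr1 and Mrc1 ended, at 1.83-fold, 1.53-fold and 1.51-fold. At equal weight Gpnmb was 2.44-fold and Igf1 5.21-fold higher.

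The lower macrophage genes included the complement genes C1qb and C1qc. C1qb was at 48.6 and 12.5 CPM, 0.258 times (0.236 to 0.283), and C1qc at 0.206 times, and under the gene limit they were at 0.0978 and 0.0669 times. Timd4, Cd5l and Vsig4, markers of resident macrophages, were at 0 in the control culture and at or below 0.523 CPM in the heme culture. Leaving out cells with more than 5000 genes gave 4 higher and 4 lower macrophage genes in place of 7 and 3.

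Matrix and arginine genes had 5 higher and 3 lower members of 13 tested, beside 5.44% and 2.11% of all tested genes. Mmp12, the elastase of macrophages, was at 1350.2 CPM in the control and 4598 CPM in the heme culture, 3.41-fold higher. Mmp13, a collagenase, was at 0.925 and 28.6 CPM, from 32 and 1477 UMIs, a ratio of 30.9 (21.8 to 45.4). Tgfbi and Mmp14 were 3.22-fold and 3.00-fold higher. Fn1, fibronectin, was at 53.1 and 15.4 CPM, 0.291 times (0.267 to 0.316), and Timp1, an inhibitor of such proteases, at 0.267 times. Arg1, arginase, was under the level of 5 CPM with 1.70 and 0.252 CPM. Without the cells of more than 5000 genes, 2 members were higher and 3 lower, with Mmp12 at 1.77-fold, Mmp13 at 12.9-fold, Tgfbi at 2.13-fold, Mmp14 at 2.00-fold, Fn1 at 0.188 times and Timp1 at 0.117 times. Mmp13 was 11.3-fold higher at equal weight.

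Chemokines and cytokines had 4 higher and 3 lower members of 18 tested, beside 5.44% and 2.11% of all tested genes, with a median of -0.08. The neutrophil attractants were higher. Cxcl3 was at 34.6 CPM in the control and 385 CPM in the heme culture, 11.1-fold higher (10.5 to 11.8), from 3.06 and 9.60 CPM on day 3. Cxcl2 was 3.30-fold higher, but 1.22-fold net of day 3. Ccl24 was at 2.08 and 29.7 CPM, a ratio of 14.3, and Ccl9 was 2.35-fold higher. Ccl2 and Ccl7, which attract monocytes, were lower, with Ccl2 at 363 and 98.6 CPM, 0.271 times (0.263 to 0.280), and Ccl7 at 0.362 times. Vegfa was at 0.388 times. With the gene limit, Cxcl3 was 4.45-fold and Ccl24 8.83-fold higher, Ccl2 was at 0.159 times, and the calls of Ccl9 and Vegfa ended, at 1.28 and 0.526 times. At equal weight Cxcl3, Ccl24 and Ccl9 were 6.64-fold, 3.76-fold and 1.80-fold higher. The inflammatory cytokines Tnf, Il1b and Il1a were at 1.25, 0.960 and 0.934 times.

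The interferon response was the list with the most tested and the most lower members. By share, the stefin list with 3 of 4 and the primary granule list with 4 of 7 had more. Of 36 tested interferon genes, 15 were 2-fold lower, beside 2.11% of all tested genes, and none was higher, and all 15 were 2-fold lower net of day 3. The list median was -0.80 on day 5, after 0.39 on day 3 and 0.17 on day 4. The promoters of the members with the smallest ratios that hold a motif of the interferon-response element are shown, since interferon-regulated factors can bind such elements. Binding at these matches was not tested. They are RefSeq windows of the same length and build, at chr14:59341281-59341580 on the minus strand for Phf11b and chr19:34640639-34640938 on the plus strand for Ifit1, and capitals mark GAAANNGAA on either strand. In Phf11b it began 50 bases before the start. In Ifit1 it occurred 3 times on the opposite strand, 109, 103 and 84 bases before the start, and the matches at 109 and 103 overlap.
Phf11b: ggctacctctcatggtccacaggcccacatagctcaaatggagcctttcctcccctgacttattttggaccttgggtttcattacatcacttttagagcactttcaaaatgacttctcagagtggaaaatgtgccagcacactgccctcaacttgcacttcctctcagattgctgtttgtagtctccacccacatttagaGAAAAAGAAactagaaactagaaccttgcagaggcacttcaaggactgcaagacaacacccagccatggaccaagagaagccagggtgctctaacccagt
Ifit1: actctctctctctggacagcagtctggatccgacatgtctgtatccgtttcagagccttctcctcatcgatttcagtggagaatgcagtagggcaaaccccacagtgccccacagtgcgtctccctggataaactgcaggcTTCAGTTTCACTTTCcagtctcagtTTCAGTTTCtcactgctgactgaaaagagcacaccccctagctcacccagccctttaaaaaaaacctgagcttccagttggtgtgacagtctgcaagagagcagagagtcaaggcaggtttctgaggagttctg

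This motif occurred in 8.56% of the 32851 windows and in 9.76% of the 27025 genes. It occurred in 7 of the 11 called interferon genes that had a window, Phf11b, Ifit1, Isg15, Cxcl10, Slfn5, Rsad2 and Oas3, and in 19 of the 29 tested members with a window. Oasl2, Xaf1, Irf7 and Cmpk2 had no match.

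In the control library each of the 15 lower genes stood higher on day 5 than on day 3. Isg15 (chr4:156199424-156200818, minus strand), a small protein that is attached to other proteins, was at 3.00 CPM in the control and 3.66 CPM in the heme library on day 3 and at 45.3 and 7.20 CPM on day 5, 0.159 times (0.142 to 0.178). Ifit1, which binds viral RNA, was at 12.3 and 1.14 CPM, 0.0926 times (0.0693 to 0.122). Phf11b was at 21.3 and 1.76 CPM, 0.0826 times, and it has close copies among its neighbours that were not separated. The antiviral genes Mx1, Usp18, Oasl2 and Rtp4 were at 0.214, 0.176, 0.233 and 0.260 times, and the chemokine Cxcl10 was at 0.165 times. In the list, 13 genes were 2-fold lower under the gene limit, and the calls of Rtp4, Cmpk2 and Oas3 ended, at 0.550, 0.695 and 0.701 times. At equal weight 15 were lower, with Ifit1 at 0.0580, Rtp4 at 0.446 and Oas3 at 0.561 times.

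Among the factors of the pathway, Irf7, which interferon itself induces, was at 12.5 CPM in the control and 3.72 CPM in the heme culture, 0.298 times (0.250 to 0.354), or 0.480 times under the gene limit. The transducers Stat2 and Irf9 were at 0.948 and 0.733 times and the RNA sensors Ifih1 and Ddx58 at 0.939 and 0.787 times, none past 2-fold. Members that respond to interferon gamma, such as Gbp2 and Irgm1, were at 0.517 and 0.611 times, and Gbp5 and Gbp7 at 1.15 and 1.01 times.

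Genes of neutrophil granules were examined by the stage at which they are made. Primary granules are filled first, in promyelocytes. Their list had 4 lower genes of 7 tested, beside 2.11% of all tested genes, and none higher, with a median log2 ratio of -1.35. Their levels were lower on day 5 than on day 3 in both libraries, with Elane, neutrophil elastase, at 2465 and 1639 CPM on day 3 and 175 and 68.6 CPM on day 5, a day 5 ratio of 0.392. Only Fcnb, ficolin, at 42 and 8.46 CPM, was 2-fold lower net of day 3 too. At equal weight 2 of the list were 2-fold lower and Elane was at 0.581 times, and under the gene limit Fcnb was at 0.320 times. Mpo, myeloperoxidase, was at 36.6 and 30.3 CPM, 0.828 times.

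Genes of secondary and tertiary granules come later. Here 3 of 11 were 2-fold lower and 1 was higher, beside 2.11% and 5.44% of all tested genes, with a median of -0.53. Camp, the gene of cathelicidin, was at 4363 and 3333 CPM on day 3 and at 1686 and 421 CPM on day 5, 0.250 times. Ltf, lactoferrin, was at 0.420 times and Chil3, a chitinase-like protein, at 0.356 times. Mmp8, neutrophil collagenase, went the other way, at 335 CPM in the control and 1260.4 CPM in the heme culture, 3.76-fold higher (3.69 to 3.83). Under the gene limit the list median had the opposite sign, 0.27, 2 members were higher and 1 was lower, with Camp at 0.407 times, while the calls of Ltf and Chil3 ended, at 0.750 and 0.615 times. Of 15 genes of neutrophil maturation, 3 were 2-fold higher and 2 lower, beside 5.44% and 2.11% of all tested genes. Clec4d, Cxcr2 and Csf3r were 3.36-fold, 2.56-fold and 2.03-fold higher, and Ly6g and Hdc were at 0.426 and 0.392 times. S100a8 and S100a9, the most abundant genes of the control culture, were at 0.732 and 0.619 times. Under the gene limit 3 of these maturation genes were higher and 0 lower, and the median turned from -0.49 to 0.18, with Ly6g and Hdc at 0.799 and 0.755 times, Cxcr2 and Csf3r at 5.14-fold and 3.42-fold, and S100a8 and S100a9 at 1.34 and 1.13 times, above 1. Ly6g was at 0.544 times at equal weight. Of 4 stefin genes in the files, whose near-identical copies were not told apart in the counts, 3 were 2-fold lower on day 5. The share of all tested genes was 2.11%. None was 2-fold lower net of day 3 and 0 under the gene limit, where the stefin median was -0.61 in place of -1.42.

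To see which cells carried these differences, the cells were split by the share of their UMIs that came from 12 granulocyte genes, S100a8, S100a9, Camp, Ngp, Ltf, Lcn2, Csf3r, Cxcr2, Retnlg, Il1r2, Ly6g and Mmp8. The split lay at 2.00% of UMIs, which is Otsu's threshold on the log10 share, with 36 control and 43 heme cells within 0.1 of it on that scale. It gives ranges of a score and no cell types. Cells above it, called granulocyte-gene-high, made up 51.2% (49.3 to 53.2) of the control and 55.0% (53.1 to 56.9) of the heme culture, which is 3.72 percentage points more (1.00 to 6.44). That difference depended on the cells with more than 5000 genes. Without them the shares were 55.6% and 73.2%, a difference of 17.5 points. Granulocyte-gene-high cells carried fewer UMIs, with medians of 5398 and 6482 UMIs against 18516 and 28457.5 in the other cells, and they held 26.7% and 25.3% of the UMIs of each culture. Sums over a culture therefore reflect mainly the granulocyte-gene-low cells.

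**Figure D3:**
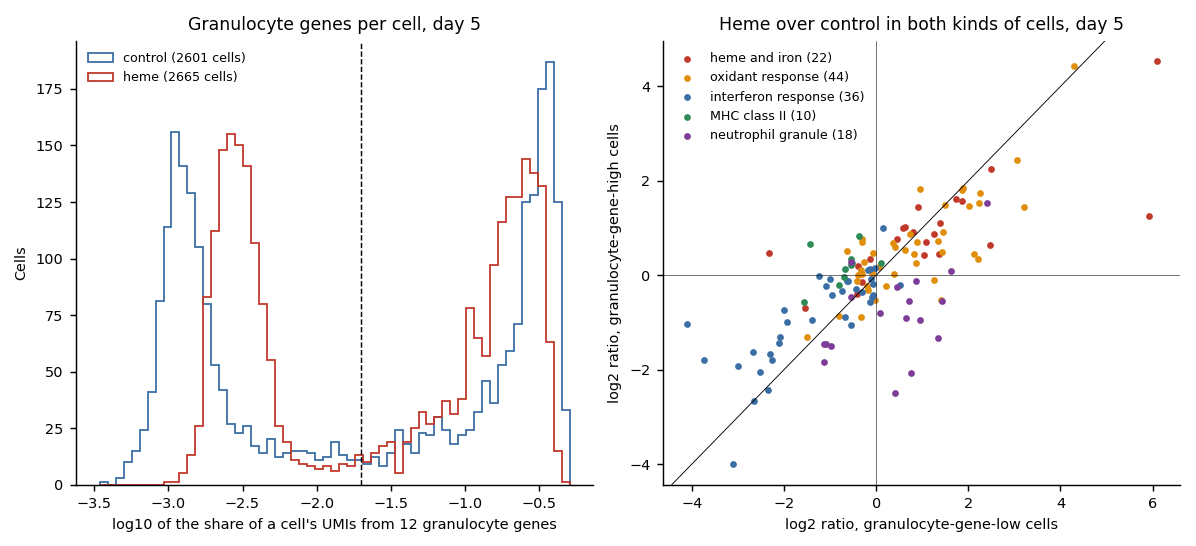
The left panel shows the number of cells of each day 5 culture by the log10 of the share of UMIs from 12 granulocyte genes, with the threshold dashed, and 51.2% of control and 55.0% of heme cells to its right, while in the right panel each point is a member of 1 of 5 gene groups, with the log2 ratio of heme to control in granulocyte-gene-low cells on the horizontal and in granulocyte-gene-high cells on the vertical axis and the diagonal marking equal ratios. Heme, iron and oxidant response genes lay mostly at the upper right and interferon genes at the lower left. Many neutrophil granule genes, some of which made the split, lay at the lower right.

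Both sides of the split were looked at separately. Of the 500 genes, 324 were 2-fold higher in granulocyte-gene-high cells, 466 in granulocyte-gene-low cells and 291 in both, and of all tested genes 9.21% and 6.64% were 2-fold higher in these cells. Of the 194 lower genes, 91 and 176 were 2-fold lower on these sides and 73 on both, beside 1.35% and 2.53% of all tested genes. Hmox1 was at 67.8 and 1579.8 CPM in granulocyte-gene-high cells of the control and heme culture, and at 60.6 and 4145 CPM in granulocyte-gene-low cells, so that its control level was alike on both sides and its heme level was not. Gclm had ratios of 5.47 and 8.30, Prdx1 of 2.76 and 4.04, and Isg15 of 0.159 and 0.160. The oxidant response genes Me1 and Cat had like ratios on both sides, with log2 values of 4.44 and 4.29 for Me1 and 1.80 and 1.87 for Cat. Nqo1 did not, at 2.72-fold (2.33 to 3.19) in granulocyte-gene-high and 9.22-fold (8.22 to 10.4) in granulocyte-gene-low cells.

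Other genes differed between the sides. Slc40a1 was at 69.6 CPM in control and 167 CPM in heme granulocyte-gene-high cells, and at 3.55 and 214 CPM in granulocyte-gene-low cells. The control level was thus far higher in granulocyte-gene-high cells, whereas in the heme culture the sides lay close to each other. MHC class II genes had a median log2 ratio of -0.61 in granulocyte-gene-low cells, where they were mainly expressed, and 0.24 in granulocyte-gene-high cells. Gpnmb had log2 ratios of 2.91 and 0.35 in low and high cells, and Mgst2 of 2.21 and 0.35. The differences between the sides were not tested.

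The secondary and tertiary granule genes had a median log2 ratio of -0.55 in granulocyte-gene-high cells. There, Camp was at 6211 and 1469.7 CPM, Ltf at 4400.0 and 1754 CPM and Chil3 at 9674 and 3533 CPM, while Mmp8 was at 771 and 2222 CPM and Cxcr2, the receptor of mature neutrophils, at 29.2 and 96 CPM. Camp, Ltf, Mmp8 and Cxcr2 belong to the genes that made the split. In granulocyte-gene-low cells the list median was 0.77. In these cells the median share of UMIs from the 12 genes was 0.133% for the control culture and 0.289% for the heme culture, and the part of free RNA in this was not tested.

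Markers of other cells were counted in the same way. In the monocyte list 2 of 13 tested genes were 2-fold higher and 3 lower, beside 5.44% and 2.11% of all tested genes. The monocyte median of 0.19 turned to -0.05 with DESeq2 factors. Vcan, a matrix proteoglycan of classical monocytes, was 2.15-fold higher, Cx3cr1 3.88-fold, and Fcgr1, Ms4a6c and Nr4a1 were at 0.485, 0.403 and 0.289 times. The calls of Fcgr1 and Ms4a6c ended at equal weight, at 0.512 and 0.533 times, and that of Vcan under the gene limit. Ly6c2 was at 691 and 706 CPM. Of 4 early progenitor genes, Cd34 was lower, at 14.2 and 2.05 CPM, 0.144 times, or 0.274 times at equal weight, and the list median of 0.19 turned to -0.05 as well. None of 6 erythroid, 4 basophil and mast cell and 2 lymphocyte genes passed 2-fold, and the summed levels of these lists were 394 and 349, 74.4 and 67.4, and 32.4 and 28.9 CPM in the control and heme culture. The T cell gene Cd3e was at 0 in both cultures, and Ms4a1 of B cells was at 0 in the control culture.

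Of 16 genes of growth factor signalling, 2 were 2-fold higher and 3 were 2-fold lower, beside 5.44% and 2.11% of all tested genes. Csf3r and Socs3 were higher, the latter at 2.38-fold. The lower ones were the anti-apoptotic copies Bcl2a1a, Bcl2a1b and Bcl2a1d at 0.441, 0.403 and 0.442 times. Reads shared between these near-identical copies were not separated, and none of them was 2-fold lower net of day 3. The GM-CSF receptor genes Csf2ra and Csf2rb were at 1.29 and 1.82 times and Cish, a target of GM-CSF signals, at 1.20 times. Of 17 myeloid transcription factors, 3 were 2-fold higher and 2 lower, beside 5.44% and 2.11% of all tested genes. Spic, Tfec at 3.30-fold and Mitf at 2.62-fold were the higher ones. Those 2-fold lower included Cebpe, a factor of granule formation, at 0.467 times. The calls of Socs3, Mitf and Cebpe ended under the gene limit, at 1.63, 1.94 and 0.751 times, as they did at equal weight, at 1.78, 1.93 and 0.556 times. Spi1, which encodes PU.1, was at 458 and 388 CPM, and Irf8 at 70.9 and 67.7 CPM.

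Of 21 proliferation genes, 2 were 2-fold lower, beside 2.11% of all tested genes, and none was higher, with a median of -0.40. None was 2-fold lower net of day 3 too. Ube2c and Tyms were at 0.465 and 0.466 times, or 0.583 and 0.555 times at equal weight, and Ube2c was at 0.509 times under the gene limit. Top2a was at 229.9 and 175 CPM and Mki67 at 121 and 122 CPM. On day 3 the median was 0.23, and within the sides it was -0.57 in granulocyte-gene-low and 0.17 in granulocyte-gene-high cells.

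Lipid genes were higher in part. Of 20 tested cholesterol synthesis genes, 6 were 2-fold higher, beside 5.44% of all tested genes. None was lower and none was 2-fold higher net of day 3, with a list median of 0.82. Hmgcs1, which begins the pathway, was 2.75-fold higher, Cyp51 2.45-fold and Lss 2.61-fold. On day 3, before heme, the list median was 0.35, and Hmgcs1 had a log2 ratio of 0.67. Of 12 tested genes of lipid uptake and storage, 5 were 2-fold higher, beside 5.44% of all tested genes, and 1 was lower. Net of day 3, 2 of this list stayed 2-fold higher and 1 lower. With TMM factors, DESeq2 factors or median centring, 2 were higher. Plin2, the coat protein of lipid droplets, was at 119 and 425 CPM, 3.57-fold higher (3.46 to 3.70), and Lpl, lipoprotein lipase, at 1424 and 3017 CPM. Abca1, which exports cholesterol, was at 11.6 and 2.94 CPM, 0.255 times. Without the cells of more than 5000 genes, 1 gene of this list was higher and 1 lower, with Lpl at 1.49-fold and Abca1 at 0.115 times. In the lysosome list, Ctsl and Atp6v0d2 were 2-fold higher of 20 tested, beside 5.44% of all tested genes. They were at 2.80-fold and 2.71-fold, or 1.55-fold and 1.06-fold under the gene limit and 1.71-fold and 1.12-fold at equal weight. In the list of glycolysis and hypoxia, Ankrd37 was 2-fold lower of 21 tested, beside 2.11% of all tested genes, and the list median was -0.04.

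The genes with the largest ratios at a mean of 20 CPM or more held several that belong to no list above. After Hmox1 came Ppbp and, a short way on, Pf4, chemokines best known from platelets. Ppbp (chr5:90768518-90770063, plus strand) was at 9.12 and 9.57 CPM on day 3 and at 7.22 and 184 CPM on day 5, 25.5-fold higher (22.5 to 29). Pf4 was at 64 and 569.8 CPM, 8.90-fold higher, although it had been lower in the heme library on day 3 with 69.9 and 31.8 CPM. Their log2 ratios net of day 3 were 4.60 and 4.29. Procr, the receptor of protein C, was 17.8-fold higher at 166 CPM and Angptl2 14-fold at 112 CPM. Uchl1, a deubiquitinase, Gstm2, a glutathione transferase of the family of Gstm1, Rnf128, a ubiquitin ligase, and Dst, a cytoskeletal linker, were 9.25-fold, 8.71-fold, 7.74-fold and 6.81-fold higher. In the day 3 cells, pooled with exposed cells, Uchl1, Gstm2, Rnf128 and Dst had ratios of 4.44, 3.02, 2.09 and 2.91. Net of day 3 their ratios were 2.10, 2.91, 3.71 and 2.34. Procr and Angptl2 had day 3 ratios of 2.73 and 1.97 and were 6.56-fold and 7.10-fold higher net of day 3. The rule net of day 3 added Dnmt3l at 5.62-fold, Ptgr1 at 4.70-fold and Clec4a1, a lectin, at 5.33-fold. Under the gene limit Ppbp was 10.8-fold, Pf4 5.08-fold, Procr 8.50-fold, Angptl2 8.80-fold, Uchl1 4.55-fold, Gstm2 4.53-fold, Rnf128 4.91-fold and Dst 4.43-fold higher, and at equal weight Rnf128 was 3.95-fold higher.

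The lowest ratio belonged to Asgr2, a subunit of the asialoglycoprotein receptor. It stood at 20.2 and 18 CPM on day 3 and at 260.3 CPM in the control and 12.9 CPM in the heme culture on day 5, 0.0497 times (0.0459 to 0.0538). The heme level was thus below and the control level above that of day 3. Tnfsf8, the ligand of CD30, was at 82 and 5.05 CPM, 0.0616 times. Id3, an inhibitor of transcription factors, was at 40.1 and 2.92 CPM, 0.0729 times, whereas its relative Id1 was at 0.913 times. Klk1b11, a kallikrein with close copies, Myl10, Slamf9, Ly86 and Ckb were at 0.0720, 0.0806, 0.175, 0.182 and 0.213 times. The immediate early gene Egr3 was at 37.5 and 9.12 CPM after 10.1 and 28.5 CPM on day 3, and Treml2 was at 0.424 times. With the gene limit, Klk1b11, Myl10 and Ckb were at 0.119, 0.134 and 0.110 times and the call of Treml2 ended, at 0.607 times, while at equal weight Id3 was at 0.115 and Treml2 at 0.552 times.

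Some of these genes lie side by side in the genome. Within chr5:90759360-90905938 (GRCm38), the CXC chemokine genes Cxcl5, Ppbp, Pf4, Cxcl3, Cxcl1 and Cxcl2 all had more UMIs in the heme culture. Cxcl5, an attractant of neutrophils, was counted with 4 UMIs without and 1424 UMIs with heme, and Cxcl1, below the level of 5 CPM, with 24 and 141. Within chr11:70092644-70170834, the lectin genes Asgr2 and Mgl2 were at 0.0497 and 0.180 times, and Clec10a was at 47.8 and 23.9 CPM. Within chr4:136880129-136898803, C1qb and C1qc were joined by C1qa, with a mean below 5 CPM, at 7.11 and 1.34 CPM. These stretches, and the genes of the next paragraph, were chosen after their values had been seen.

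The rule for genes outside the lists covered means of 20 CPM or more, and the following genes, with lower means, were chosen after their values had been seen. Cyp4a12a, a cytochrome P450 of fatty acid oxidation, had 0 UMIs in the control and 1788 UMIs in the heme culture, or 34.6 CPM, which is at least 399-fold higher against a floor of 3 UMIs in the control culture. Its day 3 level in the heme library was 1.69 CPM. Rbp4, which carries retinol, was counted with 1 UMI and 1429 UMIs, and on day 3 with 87 and 46. Cyp26b1, which degrades retinoic acid, was counted with 4 and 1365 UMIs. Akr1b8, an aldo-keto reductase, was 28.9-fold higher (19.1 to 45.8), Cdkn2a, a cell cycle inhibitor, 20.0-fold (14 to 29.4) and Cyp1b1 17.4-fold (13.7 to 22.4). On the lower side, Mucl1 was counted with 448 and 6 UMIs, and Klrk1, a receptor of natural killer cells, was at 0.0580 times (0.0414 to 0.0793), or 0.104 times at equal weight. Akr1b8 was 13.1-fold and Cdkn2a 10.9-fold higher under the gene limit, and Cdkn2a was 9.16-fold higher at equal weight.

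Shares of cells with a UMI were compared after each cell had been thinned to 2000 UMIs, which left out 125 control and 81 heme cells below that depth. Hmox1 was found in 11% (9.82 to 12.3) of cells without heme and in 86.7% (85.4 to 88) of cells with heme. On day 3 the shares were 6.48% and 26.3%, and the second is the background that the heme library shows in unexposed cells. Gclm was found in 22% and 77.8% of the cells on day 5, so that both genes were spread over most cells of the heme culture. Without thinning, Hmox1 was found in 33.1% and 98%.

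Spic, Marco and Srxn1 were found in fewer cells at this depth. Spic was found in 0.0404% and 4.22% of control and heme cells, Marco in 0.202% and 3.56%, and Srxn1 in 4.85% and 14.2%. In the unexposed day 3 cells of the heme library the shares were 0.449%, 1.71% and 4.34%. Without thinning, the day 5 shares were 0.461% and 22.3% for Spic, 0.384% and 16.6% for Marco and 21.9% and 53.5% for Srxn1. Slc40a1 was found in 15.5% of the control cells rich in granulocyte genes and 1.52% of the others, against 30.6% and 24.3% in the heme culture. Isg15 was found in 8.84% of control cells (7.76 to 10.0) and in 1.47% of heme cells (1.04 to 2.01), and Irf7 in 3.39% and 1.39%. Ifit3 was found in 0.687% of control cells and in none of the 2584 heme cells, and a floor of 3 counts allows a share of cells with a UMI at this depth of up to 0.116%. Without thinning the shares were 1.81% and 0.113%. Fn1 was found in 4.56% and 1.70% and Arg1 in 0.404% and 0.116%.

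For the dendritic cell genes the shares lay closer. Ccr7 was found in 5.21% of control cells (4.37 to 6.16) and in 4.41% of heme cells (3.65 to 5.28), a difference not detectable at this depth. Thinned to 4000 UMIs the shares were 8.23% (7.09 to 9.48) and 5.75% (4.84 to 6.77), and without thinning 8.46% and 8.71%. Cd83 was found in 4.32% and 2.71%. H2-Ab1 was found in 34.3% and 28.1% of control and heme cells after thinning, whereas at full depth the shares were 47.8% and 55%, and the order of the cultures thus depended on depth.

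**Figure D4:**
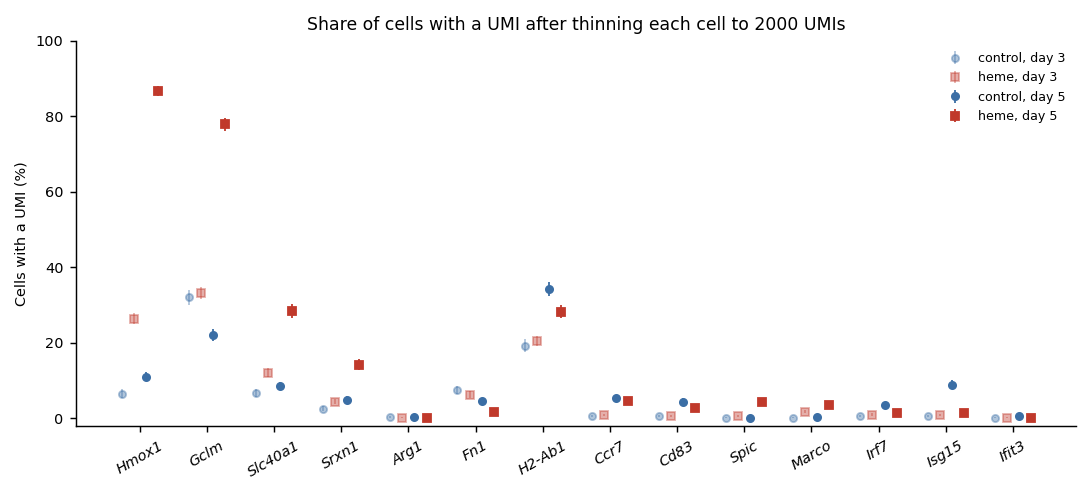
Percent of cells with 1 or more UMI of each gene after thinning every cell to 2000 UMIs, in the control and heme cultures of days 3 and 5, with exact 95% binomial intervals. On day 5 the share for Hmox1 was 11.0% without and 86.7% with heme, and for Isg15 8.84% and 1.47%.

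The day 5 ratios were set beside those of the other culture days. Hmox1 had ratios of 31.2, 55.9 and 61.4 on days 4, 5 and 7, and Gclm of 4.90, 7.51 and 15.8. Slc40a1 was 4.50-fold higher on day 4 and 139-fold on day 7. The ratio of Ppbp was largest on day 4, with 37.8 against 0.884 CPM. Cxcl3 was 8.41-fold higher on day 4 and at 0.972 times on day 7, with 118 CPM in the control and 114 CPM in the heme culture. The interferon genes had list medians of 0.17 on day 4, -0.80 on day 5 and -1.41 on day 7. Mature dendritic cell genes had medians of 0.55, -0.34 and -2.11 on these days, and MHC class II genes of -0.56, -0.57 and -1.81. Primary granule genes were lower on days 4 and 5, with medians of -1.68 and -1.35, and higher on day 7, with 1.67. Whether these ratios differ between days was not tested, as each day was 1 culture per group.

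**Figure D5:**
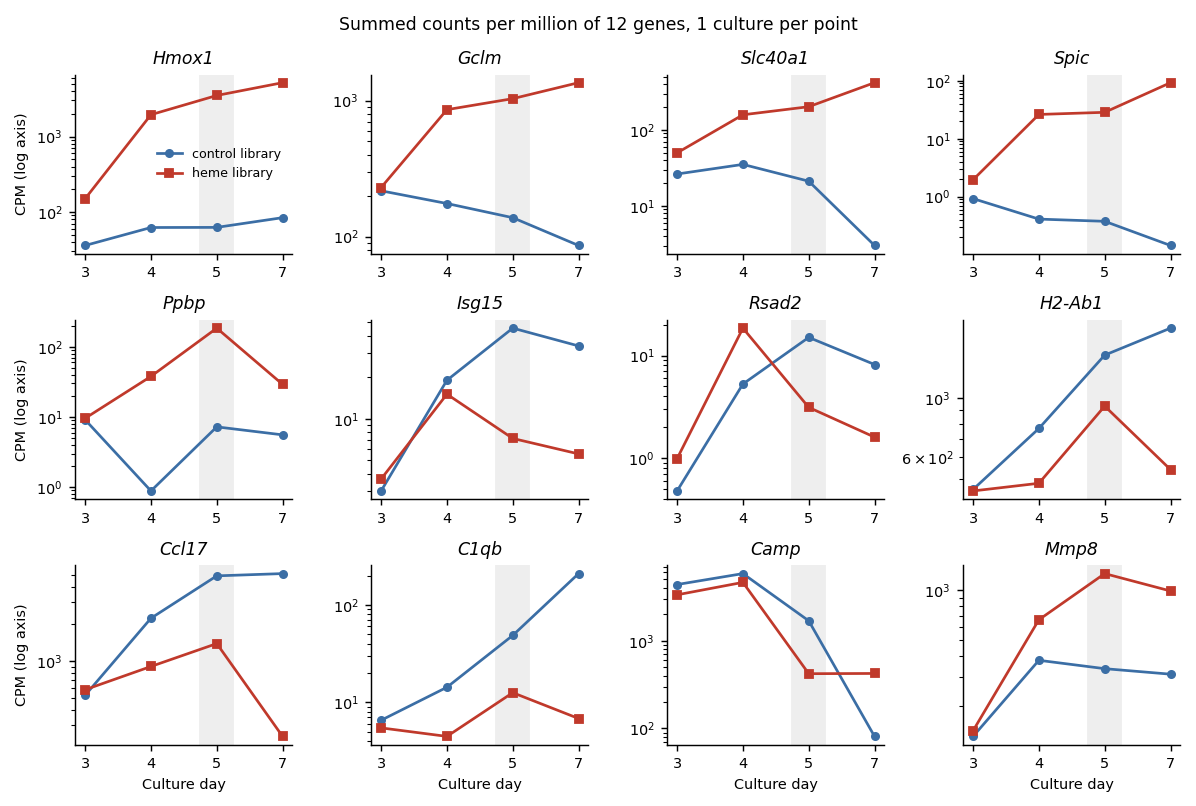
Levels of 12 genes in CPM on log axes by culture day, with the control library in blue circles and the heme library in red squares, 1 culture per point, and day 5 shaded in grey. Hmox1, Gclm, Slc40a1, Spic and Mmp8 lay higher in the heme library from day 4 to day 7 and Isg15, H2-Ab1, Ccl17 and C1qb lower, while the order of the libraries for Rsad2 and Camp differed between days.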

How the data were processed

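Day 5 cells of a control and a heme library of cultured mouse bone marrow were compared, with day 3 as background and days 0, 4 and 7 beside them. The values are UMI counts per gene and cell, deposited by the authors as raw matrices of Cell Ranger. The submitters' processing notes name Cell Ranger 4.0.0, Seurat 3.2.3 and GRCm38.p6, whereas the header of the matrices names version 5.0.0. Reads that fit several gene copies cannot be separated in these counts. Cells were assigned to culture days by the authors' deposited hashtag calls, made with Seurat's HTODemux, and barcodes called as doublets or negative were left out. No other doublet caller was run.

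CPM are the summed UMIs of a gene in a culture relative to all its UMIs. Genes with a mean of 5 CPM or more on day 5 were counted as higher or lower at a ratio of 2 or 0.5. Ratios of counts have exact 95% intervals and shares have Clopper-Pearson intervals. For ratios net of day 3, 0.5 UMIs were added to each count. With 1 library per group no test was possible. Cells were thinned to 2000 UMIs for shares of cells with a UMI. Gene positions are those of GENCODE M21 (GRCm38), matched for 26090 of 26124 identifiers, and of 73 repeated symbols the entry with the most UMIs was taken.

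The genes named are the 12 highest and 12 lowest ratios at a mean of 20 CPM or more, the same net of day 3 with 10 or more UMIs in each of the 4 cultures, the 5 most abundant genes of each culture, and the members of each list that passed 2-fold or else its most abundant members. Other genes and list members were named after their values had been seen, and a few list members are not reported here. The cultures, gene lists and rules were chosen with earlier results of these data known. Alternatives covered the scaling (TMM of edgeR 4.0.16, size factors of DESeq2 1.42.0, median centring), the level and fold, limits on genes, mitochondrial and ribosomal UMIs per cell, equal weight per cell, a common granulocyte share, the granulocyte threshold and the depth of thinning. On simulated counts for 9237 genes of the day 5 comparison, 100 of 100 genes with a 3-fold change passed 2-fold, as did 0 of 100 with a 1.6-fold change and 0 of 9037 without one, and 191 of 200 intervals held the true ratio. The simulated counts held counting error alone, with no difference between cultures and no free RNA. They therefore do not show how often genes unaffected by heme pass 2-fold. On day 3, before heme, 162 genes were 2-fold higher in the heme library and 7 were lower, and on day 0 1256 were higher and 27 lower. Python 3.11.15, numpy 2.4.6, scipy 1.17.1, pandas 2.3.3, scikit-image 0.26.0, matplotlib 3.10.9 and R 4.3.3 were used.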

Additional observations from a re-analysis of the deposited data

Results flagged for a closer look

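Several day 5 ratios had the opposite direction in another culture or on the other side of the granulocyte-gene split, by 2-fold or more for single genes. None of these differences was tested. The primary granule list had a median log2 ratio of 1.67 on day 7 against -1.35 on day 5, and the secondary and tertiary granule list 2.02 against -0.53. Among the granule and maturation genes that were 2-fold lower on day 5, the log2 ratio on day 7 was 1.67 for Elane, 1.46 for Prtn3, 1.11 for Ctsg, 2.09 for Fcnb, 2.38 for Camp, 3.14 for Ltf, 1.14 for Ly6g and 1.01 for Hdc. Granulocyte-gene-high cells made up 4.55% of the control and 17.5% of the heme culture on that day. Slc7a2, a carrier of arginine, had a log2 ratio of -1.10 on day 7 and 1.09 on day 5. Rsad2, an antiviral gene, had 1.81 on day 4 and -2.27 on day 5.

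Between the sides of the day 5 split, the secondary and tertiary granule list had a median of 0.77 in granulocyte-gene-low and -0.55 in granulocyte-gene-high cells, with Ltf at 1.34 and -1.33. Camp, Ngp, Ltf, Lcn2 and Mmp8 of this list belong to the genes that made the split. The ratios of these genes on each side are therefore not independent of it. Clec10a had log2 ratios of -1.10 and 1.01, Ms4a6c of -1.43 and 1.26, and Maf, a macrophage factor, of 2.18 and -1.23 in granulocyte-gene-low and granulocyte-gene-high cells.

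In day 0 cells of the heme library, which had met no heme in culture, Hmox1 stood at 124 CPM, Spic at 1.48 CPM and Srxn1 at 8.59 CPM, above the day 0 cells of the control library at 1.84, 0.262 and 3.83 CPM. The Hmox1 value was 5.51% of the mean level of that library. For 7 other genes this share ranged from 5.57% for S100a9 to 54.1% for Ppbp, with 31.8% for Slc40a1 and 38.3% for Gclm. The part of free RNA in these values was not tested.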

How the results depend on the processing

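No paired analysis was possible because each group was 1 library and 1 culture per day, which also limits every value above to counting error. Of the counts of genes and the granulocyte share, 78 of 117 values under an alternative stayed within 1.5 times the count or within the interval of the share. Of the medians of lists, 164 of 306 stayed between the medians of the lower and upper counting bounds of their members. Of single genes 157 of 333, and of differences in shares of cells with a UMI 12 of 42, stayed within their counting intervals. Of 34 list medians, 10 had the other sign under some alternative, 7 of them with cells of at most 5000 genes and 5 with DESeq2 factors. Neutrophil maturation went from -0.49 to 0.18 and basophil and mast cell from -0.41 to 0.44 with cells of at most 5000 genes. The secondary and tertiary granule median became 0.27 with cells of at most 5000 genes, and H2-Ab1 was found in 7.18 percentage points more heme than control cells without thinning. The share of Ccr7 also had the other order without thinning. Of 37 genes, S100a8 and S100a9 had the other sign, both with cells of at most 5000 genes, and neither was called.

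Genes higher with heme numbered 296 with TMM factors, 286 with DESeq2 factors, 306 centred on the median, 868 at a mean of 1 CPM or more, 260 at 20 CPM or more, 3230 with no filter, 1743 at 1.5-fold and 155 at 3-fold, and genes lower numbered 307, 325, 297, 330, 96, 1395, 565 and 76. Net of day 3, higher genes numbered 113 with cells of at most 5000 genes, 117 with the same weight for each cell, 355 at 1 CPM, 90 at 20 CPM, 1891 with no filter, 439 at 1.5-fold and 74 at 3-fold, and lower genes 271 at 1 CPM, 59 at 20 CPM, 1141 with no filter, 352 at 1.5-fold and 68 at 3-fold. Higher heme and iron genes numbered 16 with no filter and 16 at 1.5-fold, and higher oxidant response genes 8 at 3-fold. Lower MHC class II genes numbered 7 with cells of at most 5000 genes, 1 with the same weight for each cell, 1 at 20 CPM, 5 at 1.5-fold and 0 at 3-fold. Lower interferon genes numbered 3 at 20 CPM and 24 with no filter. The granulocyte-gene-high share differed by 17.5 points with cells of at most 5000 genes. Filters and folds change these counts by construction, and for the other settings the cause was not tested.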
